A study of Rattus norvegicus with 2 samples.

Results

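The islet peptide hormone genes are Ins1 and Ins2 (insulin), Iapp (islet amyloid polypeptide), Gcg (glucagon), Sst (somatostatin), Ppy (pancreatic polypeptide), Pyy (peptide YY) and Ghrl (ghrelin). They were chosen by gene name: 7 of the 8 genes were found by the name in the scanner output, and Pyy, which the array lists under a longer form of its symbol, was found by its transcript accession. Found in this way, each gene had 1 probe, and the 8 probes occupied 35 of the 43379 gene spots on each array, out of 41012 gene probes. Ins1, Sst and Ghrl were each printed as 10 spots and the other genes as 1 spot.

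HIP rats, which carry a human IAPP transgene, were compared with nondiabetic wild-type (WT) rats on 2 two-colour arrays, each holding 1 HIP extract labelled with Cy5 and 1 WT extract labelled with Cy3. HIP 1 and WT 1 shared array 1, and HIP 2 and WT 2 shared array 2. All 4 extracts were polyA RNA whose cDNA was amplified by global PCR before labelling, and both arrays lay on 1 slide scanned together. HIP was Cy5 on both arrays, so effects of dye and of genotype cannot be told apart. The labels name no tissue, age or sex, do not state the promoter of the transgene, and do not say whether the 2 extracts of a genotype came from different animals, so p-values reflect the spread of these samples alone, and that spread may be technical. In such bulk extracts, fewer cells of a type and less RNA per cell cannot be told apart.

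Islets of Langerhans are small endocrine organs in the pancreas in which each cell type is known by the peptide it releases. Beta cells release insulin together with islet amyloid polypeptide, alpha cells release glucagon, delta cells somatostatin, PP cells pancreatic polypeptide and epsilon cells ghrelin. Insulin lowers blood glucose and glucagon raises it, while somatostatin restrains the release of both. Rats carry a pair of insulin genes, and rat islet amyloid polypeptide does not form the amyloid that the human peptide forms.

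None of the 8 hormone probes passed the test between HIP and WT. With limma at an adjusted p of 0.05 the count was 0 of 8, beside 0% of all 33651 probes tested, and at an unadjusted p of 0.05 it was 0 of 8, beside 3.27% of all probes tested. The log2 ratios of HIP over WT after loess, which removes the average dye difference at each signal strength, were at least 2-fold lower on both arrays for 1 hormone probe, Ins1, beside 2.44% of all probes. No hormone probe was at least 2-fold higher on both arrays, beside 2.57% of all probes. Gcg alone among the 8 was at least 2-fold apart in opposite directions on the 2 arrays, as were 5.43% of all probes. By sign alone, 3 hormone probes were higher in HIP on both arrays (Iapp, Sst and Ppy), beside 26.9% of all probes, and 2 were lower on both (Ins1 and Ins2), beside 22.9%. The median of the mean log2 ratios was -0.0011 over the 8 hormone probes and 0.02 over all probes tested. The normalized levels did not overlap for the same 5 probes: both HIP extracts lay above both WT extracts for 3, beside 15.8% of all probes, and below them for 2, beside 15.1%. With 8 probes, shares of this size say nothing particular about the hormones.

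Of the 8 probes, 6 were well above background, as marked by the scanner software, in all 4 extracts. The exceptions were Iapp and Sst. No hormone spot was saturated. The Cy5 signal exceeded the Cy3 signal across the arrays: without dye normalization the median log2 ratio of all tested probes was 0.78 on array 1 and 1.19 on array 2. Several hormone ratios changed sign with the dye scaling, and values under other scalings are given with each gene.

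**Figure D1:**
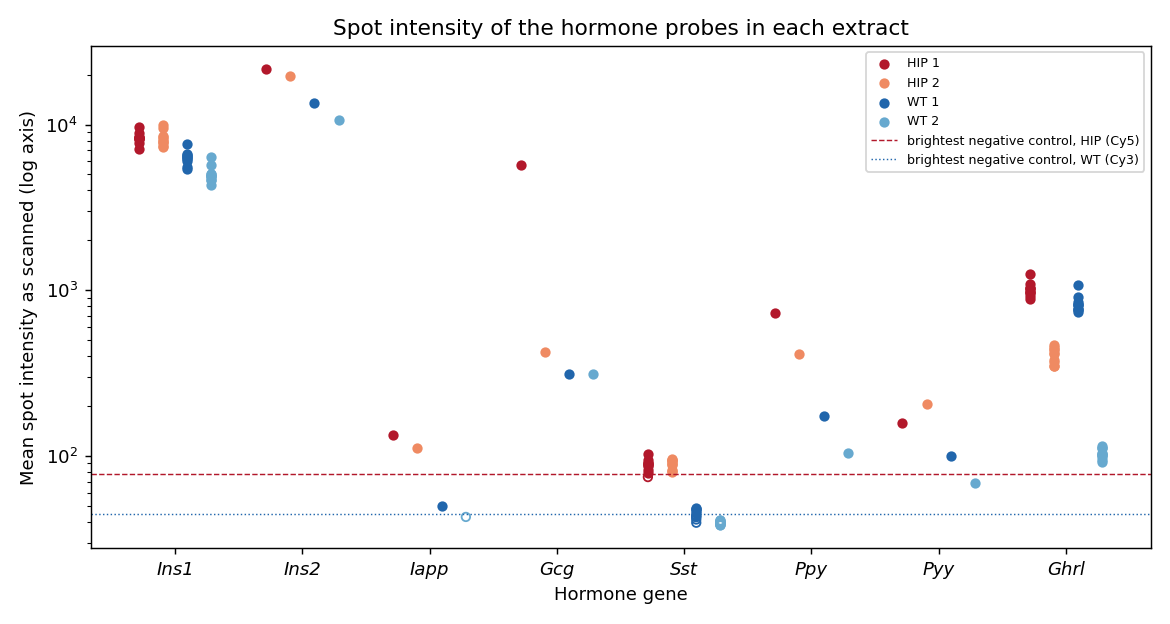
Mean intensity of every spot of the hormone probes as scanned (log axis), with HIP 1, HIP 2, WT 1 and WT 2 from left to right for each gene. Filled points were marked well above background, open points were not, and the lines give the brightest of the negative control spots in each genotype's dye; only Iapp and Sst had open points.

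Insulin was among the bright probes of all 4 extracts. The bases before the start of each insulin gene are shown because the pair of genes had similar ratios on the arrays and share much of this sequence. Capitals mark matches on either strand to GCCATCTG (an E box, bound by basic helix-loop-helix factors), TAAT (the core of the A boxes, bound by homeodomain factors such as Pdx1) and TATAAA (the TATA box), where TAAT matches can overlap each other. The sequences are the 250 bases before each start from RefSeq on GRCr8, at chr1:261185869-261186118 on the plus strand for Ins1 and chr1:207273806-207274055 on the minus strand for Ins2.
Ins1: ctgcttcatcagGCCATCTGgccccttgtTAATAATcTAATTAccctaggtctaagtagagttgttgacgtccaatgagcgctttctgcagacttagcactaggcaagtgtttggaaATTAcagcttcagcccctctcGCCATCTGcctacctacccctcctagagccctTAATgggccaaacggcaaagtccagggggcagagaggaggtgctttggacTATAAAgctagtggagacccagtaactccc
Ins2: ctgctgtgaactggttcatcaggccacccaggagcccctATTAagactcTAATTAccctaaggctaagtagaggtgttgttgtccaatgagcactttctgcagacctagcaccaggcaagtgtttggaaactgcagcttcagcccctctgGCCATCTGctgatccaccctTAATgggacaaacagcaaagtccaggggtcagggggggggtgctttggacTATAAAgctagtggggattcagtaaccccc

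The pair of sequences was identical at 205 of 238 aligned positions (86.1%). GCCATCTG stood at 2 places before Ins1, 238 and 112 bases before the start, and at 1 place before Ins2, 100 bases before the start. The same letters on either strand were found in 1.23% of 33469 RefSeq promoter windows, which run 50 bases past the start, and in none of the windows of the other 6 hormone genes. TAAT was found 6 times for Ins1 and 4 times for Ins2, but 60.6% of all windows hold it. TATAAA began 30 bases before the start in both genes and was found in 14.2% of all windows. These matches describe the letters only.

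Ins1 had mean signals of 8311 and 7917 in HIP 1 and HIP 2, against 6322 and 4780 in WT 1 and WT 2. Both HIP extracts were thus brighter than both WT extracts as scanned. The 200 gene spots of closest signal had a median raw log2 ratio of 1.51 on array 1 and 1.59 on array 2, whereas Ins1 had 0.39 and 0.72. Ins1 was therefore below the median of spots of like brightness on both arrays, though not outside their range. For gene spots grouped by mean signal just below and just above Ins1, the 5th percentiles were -0.17 and 0.23 on array 1. On array 2 they were -1.22 and -0.45. Ins1 lay above these values and below the 25th percentiles, which were 0.91 and 1.20 on array 1 and 0.86 and 1.03 on array 2. After loess its log2 ratio was -1.18 on array 1 and -1.02 on array 2, a mean of -1.10 ± 0.12 (SD, n = 2), with an unadjusted p of 0.0732 and an adjusted p of 0.942 by limma. Its normalized log2 levels were 12.17 in HIP 1 and 12.15 in HIP 2, against 13.35 in WT 1 and 13.17 in WT 2, so the genotypes did not overlap on that scale.

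The 10 spots of Ins1 gave nearly the same ratio. After outlier marks 6 spots were used on array 1, with an SD of 0.04, and 8 on array 2, with an SD of 0.02 (log2 ratio after loess). Spots of 1 array share the same labelled cDNA, so this spread is technical. With each array centred on its median log2 ratio in place of loess, Ins1 had -0.24 and -0.23. The sign of Ins1 was thus negative in every scaling tried except with no dye normalization, where it was 0.39 and 0.72.

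Ins2, the rat gene that corresponds to the single insulin gene of most other mammals, had signals of 21711 and 19690 in HIP, against 13441 and 10716 in WT. As scanned, both HIP extracts were again brighter than both WT extracts. Its raw log2 ratios were 0.69 and 0.88, beside medians of 1.81 and 1.69 for the 200 gene spots of closest signal. After loess it had -1.04 on array 1 and -0.85 on array 2, a mean of -0.94 ± 0.14 (SD, n = 2) and an adjusted p of 0.942 by limma. Median centring left 0.06 and -0.08, on either side of 0.

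Ins1 and Ins2 had nearly the same ratio. The log2 ratio of Ins1 minus that of Ins2 was -0.14 on array 1 and -0.17 on array 2 after loess, and -0.30 and -0.15 without dye normalization. The probe sequences were not used here, so whether either probe also binds the other transcript was not tested. Across 4 centred levels, the probes with a gene symbol nearest to Ins1 among 15128 were Dpf2, Or52e7, Dmbt1, Lad1 and Trim11, and Ins2 was the 12th nearest at a distance of 0.21 on the log2 scale. Dpf2, the nearest, had log2 ratios of -1.16 and -1.04.

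**Figure D2:**
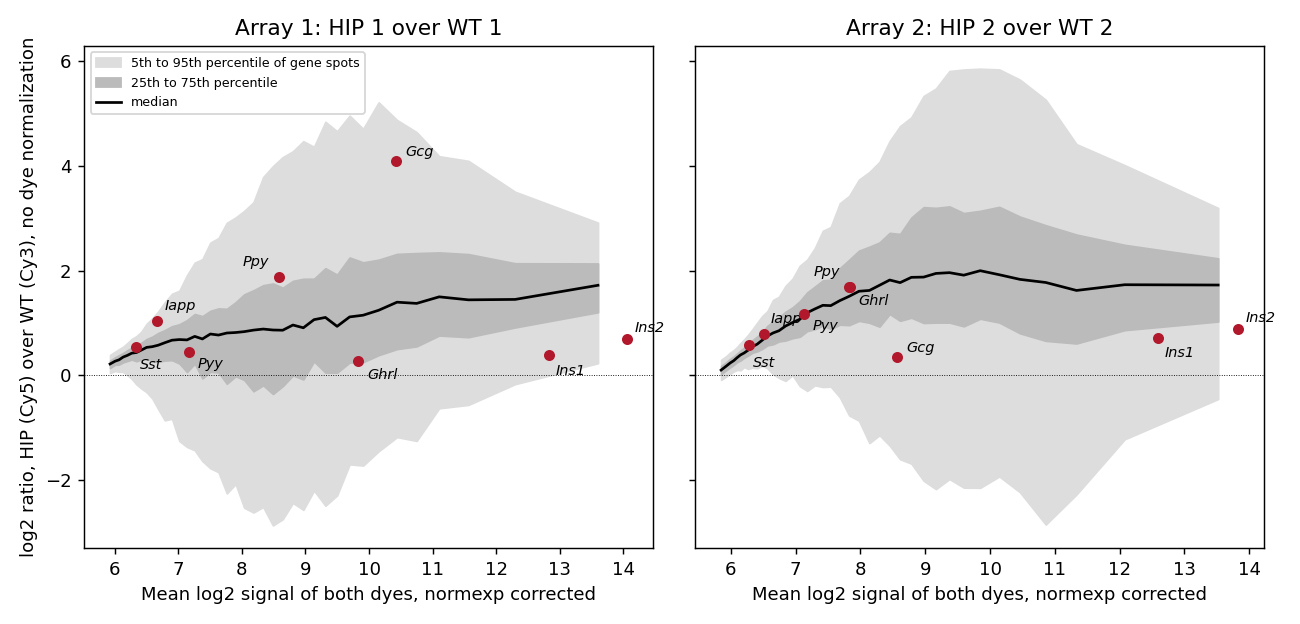
Raw log2 ratio of HIP (Cy5) over WT (Cy3), with no dye normalization, against the mean log2 signal of both dyes, for array 1 and array 2. Bands show percentiles of all gene spots and the line their median, and both insulin probes lie above 0 but below the median line on both arrays.

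Iapp, the beta cell peptide whose human form the transgene encodes, was dim. Its signals were 134 and 112 in HIP, against 49.7 and 42.8 in WT. The brightest negative control spots had 75.2 and 78.1 in HIP 1 and HIP 2, against 44.3 and 42.2 in WT 1 and WT 2. The WT values were thus within a few units of the brightest negative controls, and the WT 2 spot was not marked well above background. After loess the log2 ratio was 0.51 and 0.10, a mean of 0.31 ± 0.29 (SD, n = 2), with an adjusted p of 0.970 by limma. The scanner's own processed ratio, which subtracts the background, was larger, at 1.30 and 0.94. The loess ratio also followed a background correction, normexp with an offset of 50. With an offset of 10 it was 0.86 and 0.18, so its size depended on this choice. Median centring gave 0.41 and -0.16. Whether the probe binds the human transcript was not tested, so its ratio neither measures the transgene nor checks the labels.

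Glucagon differed most between the 2 HIP extracts. Gcg, whose product raises blood glucose, had signals of 5669 and 425 in HIP 1 and HIP 2, against 310 and 310 in WT 1 and WT 2. HIP 1 alone stood high. The log2 ratio after loess was 2.84 on array 1 and -1.35 on array 2, a mean of 0.74 ± 2.96 (SD, n = 2), with an adjusted p of 0.989 by limma. Normalized levels of Gcg differed by 3.64 (log2) between HIP 1 and HIP 2, and 4.54% of all probes tested were at least as far apart, whereas WT 1 minus WT 2 was -0.56. Without dye normalization both ratios were positive, at 4.09 and 0.35, whereas median centring gave 3.46 and -0.61.

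The array also holds a second glucagon probe, annotated to an exon of the gene, which carries no gene symbol and was not found by the rule. It was dim, with 78.1 and 105 in HIP, against 40.8 and 37.9 in WT. Neither WT spot was marked well above background, so the size of its ratio is unsure. After loess its log2 ratios were 0.14 and 0.30, a mean 1.16-fold higher in HIP, with an adjusted p of 0.988 by limma. Median centring gave log2 ratios of -0.12 and -0.11. The direction thus depended on the dye scaling.

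Somatostatin lay close to background. Sst, the delta cell hormone that restrains insulin and glucagon release, had mean signals of 87.9 and 88.9 over its 10 spots in HIP, against 44.6 and 39.3 in WT. Of the 10 spots, 9 and 10 were well above background in HIP, against 5 and 0 in WT. In WT 2, 3 of 153 negative control spots were as bright or brighter. The log2 ratio after loess was 0.13 and 0.09, a mean of 0.11 ± 0.03 (SD, n = 2), with an adjusted p of 0.998 by limma. The SD between spots was 0.09 and 0.08, about as large as the ratio. Median centring gave -0.09 and -0.38, and the scanner's processed ratio 0.43 and 0.72.

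Ppy and Pyy belong to the neuropeptide Y family. Ppy, the PP cell hormone, had signals of 728 and 413 in HIP, against 174 and 104 in WT. As scanned, both HIP extracts were brighter than both WT extracts. Its raw log2 ratios were 1.89 and 1.69, beside medians of 0.78 and 1.50 for the 200 gene spots of closest signal. After loess the ratio was 0.93 and 0.19, a mean of 0.56 ± 0.52 (SD, n = 2), with an adjusted p of 0.942 by limma. It was positive on both arrays under all 5 dye scalings and was 1.26 and 0.74 with median centring.

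Pyy, made in gut and islet cells, had signals of 157 and 205 in HIP, against 99.8 and 68.2 in WT. Its log2 ratio after loess was -0.25 and 0.03, a mean of -0.11 ± 0.20 (SD, n = 2), with an adjusted p of 0.998 by limma. Its normalized level in WT 1, 7.14, and in WT 2, 7.26, lay between those of HIP 1, 6.89, and HIP 2, 7.29, so the genotypes overlapped. Median centring gave log2 ratios of -0.19 and 0.22 for Pyy, and no dye normalization gave 0.44 and 1.18.

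Ghrelin differed between arrays in both genotypes. Ghrl, which is known to stimulate appetite, had mean signals of 987 and 407 in HIP 1 and HIP 2, against 805 and 103 in WT 1 and WT 2. Both extracts on array 1 were brighter than both on array 2. After loess the log2 ratio was -0.86 on array 1 and 0.20 on array 2, a mean of -0.33 ± 0.75 (SD, n = 2), with an adjusted p of 0.980 by limma. The SD between its spots, 9 used on array 1 and 10 on array 2, was 0.05 and 0.06, far below the gap between arrays. Normalized levels of Ghrl differed by 1.13 between HIP 1 and HIP 2 and by 2.19 between WT 1 and WT 2, and 11.0% of all probes tested were at least as far apart as the WT pair. Median centring gave log2 ratios of -0.36 and 0.74 for Ghrl, and no dye normalization gave 0.27 and 1.69.

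**Figure D3:**
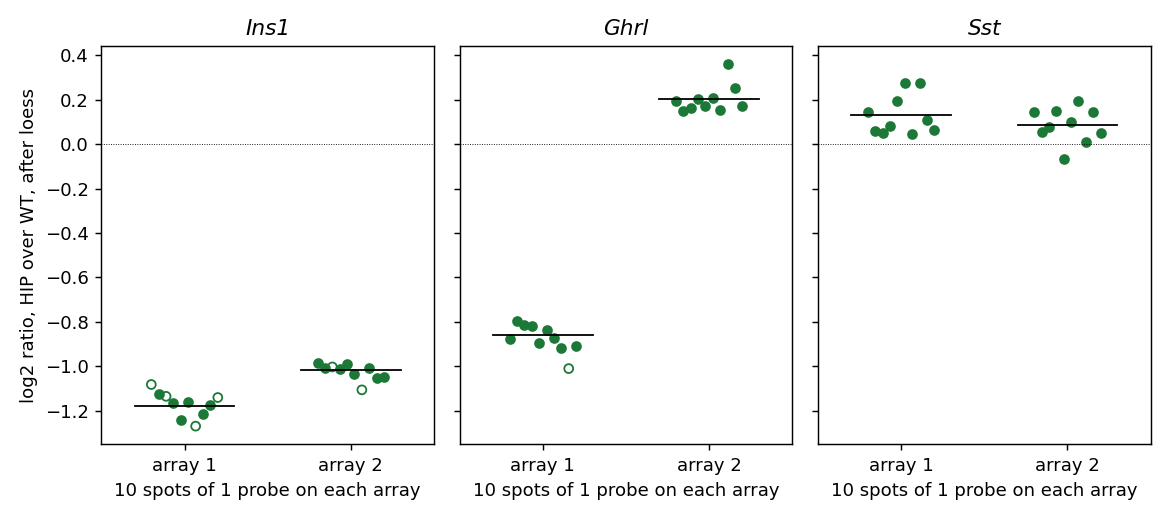
Log2 ratio of HIP over WT after loess for each of the 10 spots of Ins1, Ghrl and Sst on each array, with open points for spots left out as outliers and a line at the mean of those used. Spots of 1 array lie together, while the arrays stand 1.06 apart for Ghrl and 0.16 apart for Ins1.

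**Figure D4:**
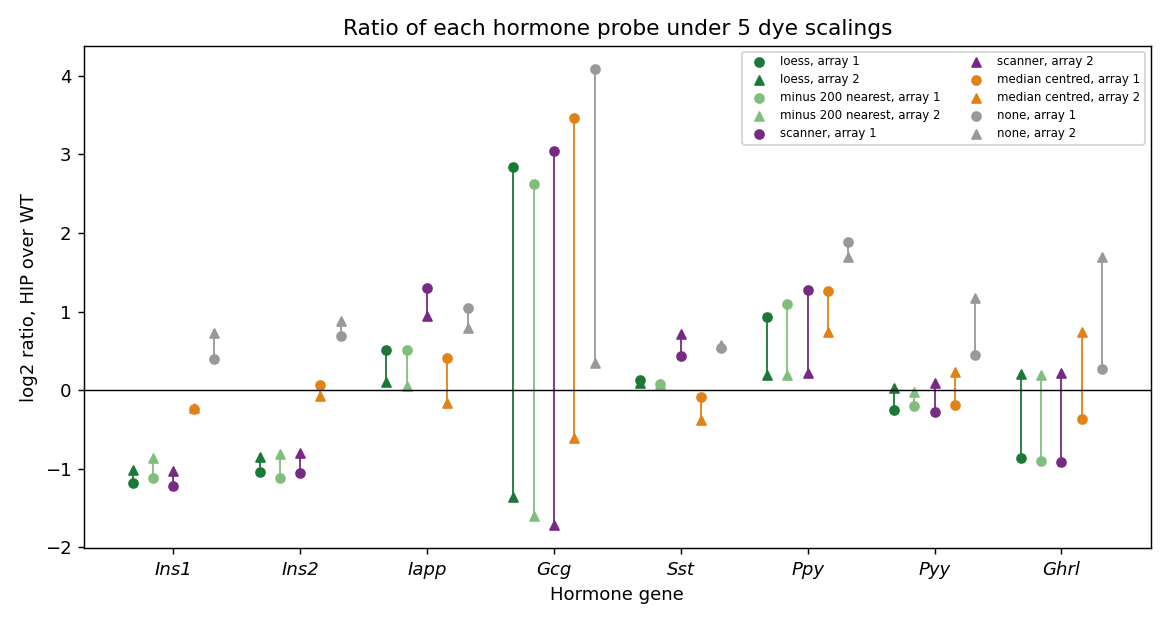
Log2 ratio of HIP over WT of each hormone probe on array 1 (circles) and array 2 (triangles) under 5 dye scalings. Lines join the arrays; loess, the 200 nearest spots and the scanner's ratio lie close together for both insulin genes, and Gcg spans the widest gap under every scaling.

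**Figure D5:**
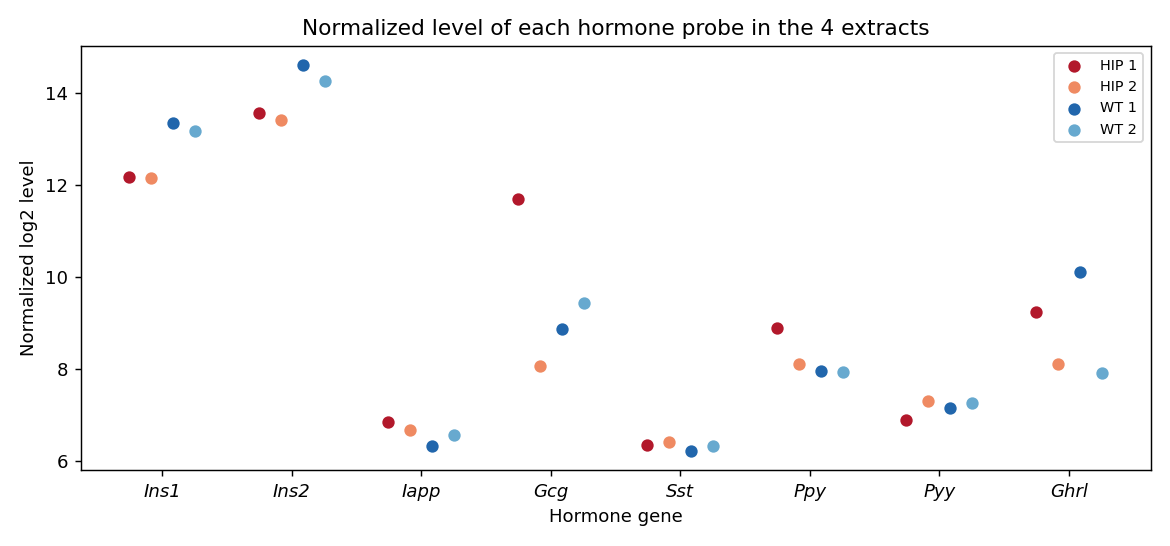
Normalized log2 level of each hormone probe in HIP 1, HIP 2, WT 1 and WT 2, from left to right for each gene. Levels had normexp, loess and then quantile scaling of the mean signal between arrays. Both HIP extracts lie below both WT extracts for Ins1 and Ins2 and above them for Iapp, Sst and Ppy, and for Gcg the HIP 1 value stands 3.64 above HIP 2.

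Genes that work with the hormones did not pass the test either. Of 12 genes that process hormones or form their granules, 11 had a tested probe, taking the brightest for each gene. After loess 0 passed in either direction, 2 were higher in HIP on both arrays, 4 lower on both and 5 differed in sign, with a median of the mean log2 ratios of -0.26. Over all probes tested, 26.9% were higher on both arrays and 22.9% lower on both. At least 2-fold, the shares were 2.57% higher and 2.44% lower. Counts of this list and of those that follow stand beside these shares. Pam, which amidates peptides, was at least 2-fold higher, with signals of 838 and 824 in HIP, against 91.7 and 61.6 in WT, and log2 ratios of 1.95 and 1.68. Ptprn2, a granule membrane protein, was at least 2-fold lower, at -3.89 and -1.41, but its other probe had 0.42 and 1.41. The prohormone convertase Pcsk2 had -2.55 and 0.34, while its other probe had -0.12 and 0.11. Pcsk1, the other main convertase, had -0.48 and 2.68.

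Of 19 receptors of these hormones and their accessory proteins, 17 had a tested probe, 0 passed, 6 were higher in HIP on both arrays, 3 lower on both and 8 differed in sign, with a median of 0.26. Ramp2, an accessory protein of calcitonin-family receptors, had signals of 970 and 459 in HIP, against 78.4 and 41.6 in WT, and log2 ratios of 2.33 and 1.50. Its WT 2 spot was not well above background, so of the WT extracts WT 1 alone measured it. The glucagon receptor Gcgr, named after its values were seen, was among the 8 that differed in sign, at 3.97 and -2.42. Of all probes tested, 5.43% were at least 2-fold apart in opposite directions, so a link with Gcg cannot be read from this.

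Of 19 gut and neural peptides, 17 were on the array and 16 had a tested probe. Again 0 passed, 7 were higher in HIP on both arrays, 3 lower on both and 6 differed in sign, with a median of 0.13. Gip, the incretin of the upper gut, had 1.40 and 3.16, but its other probe had -0.73 and -0.09. Gastrin, Gast, was the brightest of these, with 29702 and 27172 in HIP, against 9143 and 11677 in WT, but its log2 ratios after loess were -0.03 and -0.50.

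Markers of the islet cell types other than the hormones were read in the same way. Of 6 such beta cell markers, 4 were tested, 0 passed, 1 was lower in HIP on both arrays after loess and 3 differed in sign, with a median of -0.25. Their summed signal as scanned, which includes the general excess of Cy5, was 2808 and 2322 in HIP, against 1933 and 1843 in WT. Mafa, a transcription factor that activates insulin genes, was the one that was lower on both, at -0.99 and -1.75. Pdx1, which binds the A boxes, had -0.37 and 0.12.

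The 4 alpha cell markers beside Gcg were all tested, and 0 passed, 1 was lower in HIP on both arrays and 3 differed in sign, with a median of -0.10. Both delta cell markers beside Sst, Rbp4 and Hhex, were higher in HIP on both arrays. Rbp4, the plasma carrier of retinol, had signals of 2359 and 2847 in HIP, against 54.9 and 50.3 in WT, and log2 ratios of 3.95 and 3.47 after loess. Its adjusted p was 0.942 by limma, with an unadjusted p of 0.0043, so it did not pass. The WT spots of Rbp4 were marked well above background, but the brightest negative controls had 44.3 in WT 1 and 42.2 in WT 2. The size of its ratio is therefore unsure: the mean was 3.71 with loess, 4.28 with median centring and 5.60 with the scanner's processed ratio.

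Of 10 acinar cell markers, which mark the exocrine pancreas, 8 were tested and 0 passed. After loess 3 were higher in HIP on both arrays, 1 was lower on both (Cela1, a pancreatic elastase, at -0.99 and -1.60) and 4 differed in sign, with a median of 0.23. The other probe of Cela1 differed in sign, at 0.27 on array 1 and -4.74 on array 2. Their summed signal as scanned, which includes the general excess of Cy5, was 21091 and 35498 in HIP, against 6810 and 5993 in WT. Prss1, a trypsinogen gene, and Ctrb1, a chymotrypsinogen gene, made up much of the HIP 2 sum, at 10050 and 12124. The part of these markers in the hormone ratios was not tested.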

How the data were processed

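The members and gene lists were chosen with earlier results of these data known. Per the file headers, the authors read the spots out in Agilent's Feature Extraction, release 9.5.1.1. The deposited scanner output gives spot and local background intensity as scanned, and a processed intensity that was background-subtracted and dye-normalized. Its log10 ratio is processed Cy5 over Cy3, per the file headers. The deposited p-value of each spot comes from the software's error model and was not used for any result. The authors' deposited table of log10 ratios equalled the scanner's within 2e-05 for 32775 of 36265 entries (90.4%).

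The steps run here, in limma 3.58.1 under R 4.3.3, were normexp (offset 50), loess within each array with control spots at weight 0, outlier-marked spots left out, and spots averaged per probe. For the normalized levels of single extracts, a further step after loess gave the mean log2 signals of both arrays the same quantiles (Aquantile). A probe was tested where 1 or both dyes were well above background on each of the arrays (33651 of 41012). Log2 ratios of HIP (Cy5) over WT (Cy3) were fitted with lmFit and eBayes and tested two-sided against 0, with Benjamini-Hochberg adjustment over all probes tested. An exact permutation test of a single value over 2 arrays cannot give a p below 0.5. The 2 arrays limit the precision.

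Names were updated through RefSeq GRCr8 (10726 probes by accession and 9309 by symbol or synonym). No build is named for the probe positions, so none are printed. All 8 hormone genes are described; of the processing, receptor and peptide lists, genes at least 2-fold apart the same way on both arrays are named, with up to 4 of the brightest; Gcgr, Pcsk1, Pcsk2, Mafa, Pdx1, Rbp4, Hhex, Cela1, Ctrb1 and Prss1 were added after their values were seen. Alternatives were other dye scalings and background corrections, other probe filters and priors, and each array alone.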

Additional observations from a re-analysis of the deposited data

How the results depend on the processing

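No alternative gave a call among the hormone probes or among all probes: 0 passed at an adjusted p of 0.05 in every other limma fit, and the smallest adjusted p was 0.29, with no dye normalization. The number at an unadjusted p of 0.05 was 1099 of 33651 with loess and 5588 with no dye normalization. That setting turned the mean log2 ratio of Ins1 to 0.56, Ins2 to 0.78, Pyy to 0.81 and Ghrl to 0.98, and shifts the median of all tested probes by 0.78 and 1.19. Median centring turned Sst to -0.23, Pyy to 0.019, Ghrl to 0.19 and the median of the processing genes to 0.17. Each array alone gave 2.84 and -1.35 for Gcg, -0.25 and 0.029 for Pyy and -0.86 and 0.20 for Ghrl. The number of hormone probes at least 2-fold apart the same way on both arrays, 1 with loess, was 0 with median centring and 0 against the 200 nearest spots. On array 1 alone 3 were at least 2-fold apart in either direction, and on array 2 alone 2 were, with Gcg among them each time. The cause was not tested. Each array gives 1 ratio of a HIP and a WT extract, so the test already paired the extracts by array. Signal near background limits Iapp and Sst.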
